A study of Mus musculus with 18 samples.

Results

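Messenger RNA was measured in whole lung of mice that had been through a cigarette smoke model of chronic obstructive pulmonary disease (COPD), and the 6 smoke-exposed libraries were set together against 3 control libraries. These are all 9 mRNA libraries among the 18 libraries of the series, and they were taken by their labelled groups, with no measured value used. The control mice had no smoke and received phosphate-buffered saline (PBS). The 3 COPD model libraries came from mice exposed to cigarette smoke that were also given cigarette smoke extract into the peritoneum, and these mice received PBS too. The 3 BMSC-treated libraries came from the same model followed by a tail vein injection of 4000000 BMSCs, the labels' name for the mesenchymal stem cells, in 100 µl PBS. Every smoke-exposed mouse therefore had both forms of smoke, and no group had BMSCs without smoke. The comparison asks which differences from control were shared by the smoke-exposed mice with and without BMSCs. The sources used here do not state strain, age, sex, the length of the exposure, the source of the BMSCs or the hour at which lungs were taken. Nothing in the labels ties each library to its own mouse, and the p-values therefore cover the spread among these libraries, which may be technical. The tissue label was checked against defining lung genes. Over the 9 libraries, Sftpc of alveolar type 2 cells stood between 614 and 3249 FPKM, Ager of alveolar type 1 cells between 14.7 and 129, Pecam1 of endothelium between 2.92 and 43.4, and Scgb3a2 of club cells between 152 and 5468.

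The circadian clock of a cell is a feedback loop of transcription. CLOCK and BMAL1 (gene Arntl), or NPAS2 in place of CLOCK, bind E-box sequences and switch on the Period and Cryptochrome genes, whose proteins then shut that activity off. REV-ERB proteins (Nr1d1, Nr1d2) repress Arntl, Clock, Npas2 and Nfil3, RORA opposes them, and the factors DBP, TEF and HLF drive output genes through D-box sequences that NFIL3 represses. Lung has such a clock, in club cells among others. Cigarette smoke is known for a different set of genes: polycyclic hydrocarbons act through the aryl hydrocarbon receptor (AhR) on enzymes such as Cyp1a1, and oxidants act through NRF2 on enzymes such as Nqo1.

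The values are FPKM, fragments scaled to transcript length in kilobases and to the mapped fragments of each library, so they are per length, and a few very abundant transcripts press down all others. The 13 mitochondrially encoded genes made up 46.9% to 89.3% of summed FPKM in controls, 23.9% to 30.0% in the COPD model and 55.6% to 92.2% after BMSCs. Scgb1a1, the main secretory protein of club cells, made up 1.02% to 19.03%, 33.0% to 39.2% and 1.32% to 6.27% in the same order. Between all smoke-exposed and control libraries these shares overlapped (mitochondrial 50.2% ± 27.6, SD, n = 6, against 67.1% ± 21.2, n = 3, two-sided exact permutation p = 0.405; Scgb1a1 20.9% ± 18.1 against 10.2% ± 9.01, exact permutation p = 0.381; the smallest p this design allows is 0.0238). Control 1 and BMSC-treated 1 stood apart, with 89.3% and 92.2% mitochondrial FPKM, and 1038 and 1193 genes listed at 0 where the other 7 libraries had 107 to 201. Values are therefore also given as rescaled FPKM, in which each library was multiplied by 0.714 to 3.37 (2.37 for control 1 and 3.37 for BMSC-treated 1) so that the sum outside Scgb1a1 and the mitochondrial genes was equal in all. The depth of the libraries is unknown.

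**Figure D1:**
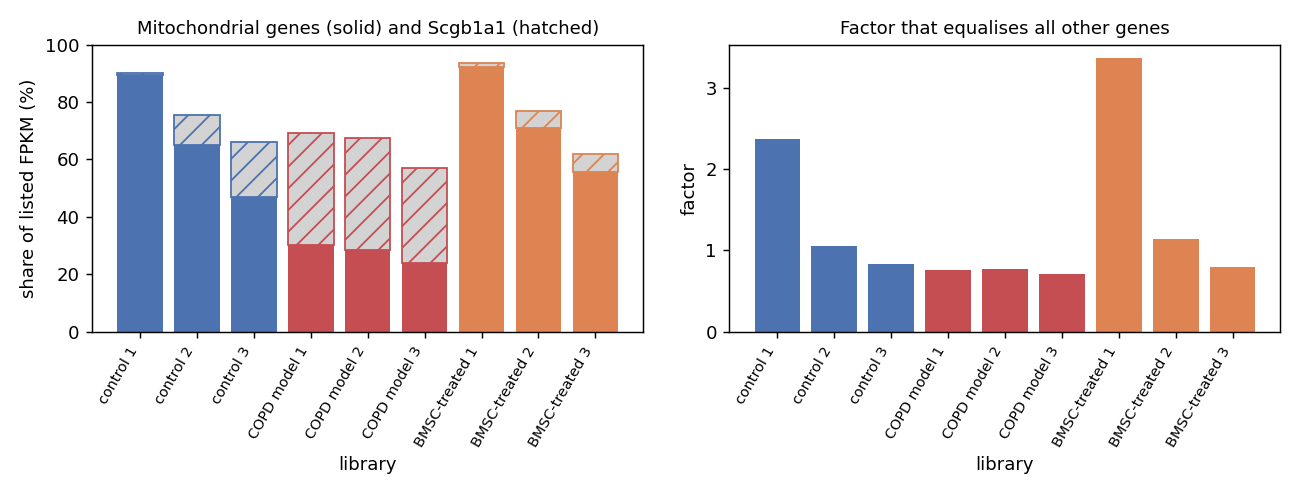
Left, share of summed FPKM (percent) taken by the mitochondrially encoded genes (solid) and by Scgb1a1 (hatched, stacked on them) in each of the 9 libraries. Right, the factor by which each library was multiplied to give rescaled FPKM, which is highest in control 1 (2.37) and BMSC-treated 1 (3.37), the libraries with the highest mitochondrial shares (89.3% and 92.2%).

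Across 11765 genes that reached 1 FPKM in at least 3 libraries, 1 gene passed the threshold of 0.05 on the adjusted p in limma on deposited FPKM, which is 0.00850% of those tested, and none passed on rescaled FPKM (0.00%, smallest adjusted p = 0.232). Without adjustment, 138 genes (1.17%) had a p under 0.05 on deposited FPKM, 118 of them higher and 20 lower, and 210 were higher and 67 lower on rescaled FPKM (1.78% and 0.569%). The direction of a typical gene depends on the scale: the median log2 difference, smoke-exposed minus control, was 0.27 on deposited FPKM, with 88.5% of genes above 0, and 0.06 on rescaled FPKM, with 59.2% above 0. Every log2 difference was taken after adding 1 to the FPKM, and this makes the differences of low genes too small. In simulated data of this design, 10 of 200 genes given a log2 difference of 2 were called, so a gene that missed the threshold here is not shown to be unchanged. Those 200 were drawn from genes of higher level, so recovery among low genes was not measured.

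All 6 smoke-exposed libraries lay above all 3 controls for 81 genes and below them for 49 on rescaled FPKM (0.688% and 0.416% of genes), and for 4 and 3 on deposited FPKM (0.0340% and 0.0255%). On a scale set by the median ratio of all genes the counts were 108 and 60 (0.918% and 0.510%). Of the 84 ways to split these libraries into 6 and 3, 1 gives such a separation in a given direction. All of these shares lie below 1 in 84, so a lack of overlap does not by itself set a gene apart from random labelling. On deposited and rescaled FPKM alike, the libraries did not overlap for 1 gene that was higher, Plagl1 (0.00850%), and 3 that were lower, Tiam1, Kif26b and Gm20521 (0.0255%). Plagl1 passed the filter on low values through smoke-exposed libraries alone, and Tiam1 through controls alone. A gene high only in smoke-exposed libraries needs 3 of 6 to pass, and one high only in controls needs all 3. Counts of higher and lower genes, here and at unadjusted p, are therefore not on equal terms. In whole lung, fewer cells of a type and less RNA per cell cannot be told apart, here and in all that follows. The COPD model and BMSC-treated differences from control share the same control libraries, so their values are set side by side and not compared with each other as evidence.

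Of the gene lists examined, the circadian clock genes had the highest median difference from control on deposited and on rescaled FPKM with all libraries. Without control 1 and BMSC-treated 1 the smooth muscle list stood higher on rescaled FPKM (1.07, beside 0.96 for clock genes). Of 19 clock genes, 17 passed the filter on low values, and none was called by limma after adjustment. Arntl and Npas2 failed the filter, and both were below 0 in the fit with no filter. The counts and medians over the 17 therefore leave out lower members. On rescaled FPKM, 15 of the 17 were above 0 and 2 below, with 9 higher and 2 lower at unadjusted p under 0.05, beside 1.78% and 0.569% of all genes. The median log2 difference over the 17 was 0.93, beside 0.06 for all genes (1.14 beside 0.27 on deposited FPKM). It was 1.23 in the COPD model and 0.87 after BMSCs on rescaled FPKM, beside 0.14 and -0.01 for all genes. The 2 genes below 0 were Clock and Nfil3. Under the 20 alternative settings of scale, filter, model and libraries, the 15 genes stayed above the median of all genes in every setting that tested them, and Clock and Nfil3 below it in all 19 that tested them.

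The 250 bases before the start of 16 of the 19 clock genes were read from RefSeq (GRCm38.p6, which is mm10), and both strands were searched for the E-box CACGTG and the D-box TTATGTAA. An E-box was in 5 of the 16 genes, Bhlhe41, Ciart, Cry1, Per1 and Tef, and in 6 of their 21 windows (28.6%), where 6.02% of all 32851 windows held it. A D-box was in 1, Per3, and in 1 of 21 windows (4.76%) beside 0.819% of all. The E-box reads the same on both strands and the motifs do not overlap. A match is a description of letters, not a site of binding. Windows of 4 genes are shown because these genes carry the motifs and were among the higher clock genes. Capitals mark the E-box in the first 3 and the D-box in Per3. Ciart (chr3:95882229-95882478, minus strand) holds 3 E-boxes, Bhlhe41 (chr6:145865421-145865670, minus strand) and Tef (chr15:81802423-81802672, plus strand) hold 1 each, and Per3 (chr4:151044666-151044915, minus strand) holds 2 D-boxes.
Ciart: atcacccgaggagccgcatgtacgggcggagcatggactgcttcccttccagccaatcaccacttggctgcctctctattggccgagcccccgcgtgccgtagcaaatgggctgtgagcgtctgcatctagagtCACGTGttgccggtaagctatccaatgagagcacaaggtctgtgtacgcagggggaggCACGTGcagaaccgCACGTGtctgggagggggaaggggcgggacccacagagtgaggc
Bhlhe41: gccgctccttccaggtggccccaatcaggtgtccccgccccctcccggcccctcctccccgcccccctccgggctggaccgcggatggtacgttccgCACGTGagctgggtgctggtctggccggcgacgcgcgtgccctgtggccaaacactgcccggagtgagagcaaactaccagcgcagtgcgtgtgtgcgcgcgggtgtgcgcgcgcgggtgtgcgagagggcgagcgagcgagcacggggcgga
Tef: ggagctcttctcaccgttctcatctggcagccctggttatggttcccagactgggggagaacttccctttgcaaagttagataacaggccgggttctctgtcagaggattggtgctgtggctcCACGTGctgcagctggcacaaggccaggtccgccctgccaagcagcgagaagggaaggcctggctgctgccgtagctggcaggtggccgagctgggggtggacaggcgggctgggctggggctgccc
Per3: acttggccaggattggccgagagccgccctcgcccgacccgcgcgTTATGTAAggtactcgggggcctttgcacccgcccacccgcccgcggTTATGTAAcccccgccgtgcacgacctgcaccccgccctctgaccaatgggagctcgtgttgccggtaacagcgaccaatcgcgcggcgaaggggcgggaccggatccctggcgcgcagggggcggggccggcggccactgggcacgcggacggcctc

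Dbp, the output factor that binds D-boxes, had the largest difference of the clock genes (ENSMUSG00000059824.12, chr7:45705100-45710203). Its deposited FPKM was 0.693, 3.28 and 12.2 in controls 1 to 3, 29.9, 53.4 and 46.9 in the COPD model and 8.80, 33.6 and 57.7 after BMSCs. BMSC-treated 1 lay below control 3, and the other 5 smoke-exposed libraries lay above all controls. On rescaled FPKM the controls were at 1.64, 3.46 and 10.2 and the smoke-exposed libraries between 22.8 and 45.6, with no overlap. The log2 difference was 2.90 ± 0.67 (SE; limma adjusted p = 0.221) on deposited and 2.80 ± 0.41 (adjusted p = 0.232) on rescaled FPKM. By group it was 2.68 in the COPD model and 2.91 after BMSCs on rescaled FPKM. Control 3 was the highest control, so leaving it out could only widen the difference. Without control 3, Dbp was called (adjusted p in limma 0.0059), as it was without control 1 and BMSC-treated 1 together (log2 difference 2.55, adjusted p = 0.0251). On rescaled FPKM without those 2 libraries the log2 difference was 2.41, with an adjusted p of 0.427 in limma.

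The other D-box factors differed in size. Tef was at 0.0533, 0.481 and 9.79 FPKM in controls, 14.5, 26.2 and 28.2 in the COPD model and 0.315, 9.37 and 19.9 after BMSCs, a log2 difference of 2.27 ± 0.65 (SE; limma adjusted p = 0.989). Controls 1 and 2 and BMSC-treated 1 were low, so the groups overlapped. Without control 3, the highest control, Tef was called (log2 difference 3.30, limma adjusted p = 0.0059), and leaving that control out could only widen the difference. Hlf lay between 0.570 and 1.74 FPKM in controls and between 0.988 and 5.73 in smoke-exposed libraries, with a log2 difference of 0.84 and overlap on either scale. Nfil3, which represses through the same D-boxes, went the other way. On rescaled FPKM it was at 6.36, 5.92 and 4.73 in controls, 3.45, 2.66 and 2.29 in the COPD model and 3.23, 1.62 and 1.87 after BMSCs. Every smoke-exposed library was below every control on that scale, with a log2 difference of -0.94 ± 0.22 (SE; limma adjusted p = 0.999). On deposited FPKM the groups overlapped and the log2 difference was -0.67.

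Of the repressors of the loop, Per2 was listed at 0 and at 1.76 and 6.73 FPKM in controls 1 to 3, at 8.44, 20.3 and 20.9 in the COPD model and at 0.614, 4.14 and 8.63 after BMSCs. The COPD model libraries were above all controls, and the BMSC-treated libraries spanned the control range. The log2 differences were 1.60 for Per2, 1.33 for Per3 and 0.95 for Per1, with limma adjusted p = 0.989 for each. Ciart, a repressor of CLOCK and BMAL1, was at 0.445, 0.252 and 2.28 FPKM in controls, 3.53, 9.86 and 10.9 in the COPD model and 0.481, 6.26 and 9.15 after BMSCs, and only BMSC-treated 1 fell within the control range. Its log2 difference was 1.80 ± 0.55 (SE; limma adjusted p = 0.989). Cry1 and Cry2, the Cryptochromes, had log2 differences of 0.54 and 0.98 and overlapped controls on both scales.

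Bhlhe40 and Bhlhe41, repressors that bind E-boxes, did not overlap between groups on rescaled FPKM. Bhlhe40 was at 1.85, 5.57 and 3.66 in controls, 7.40, 10.8 and 13.2 in the COPD model and 7.60, 8.85 and 14.2 after BMSCs, a log2 difference of 1.32 ± 0.31 (SE; limma adjusted p = 0.999). Bhlhe41 was at 2.19, 1.52 and 1.21, then 3.09, 4.57 and 4.72, then 3.26, 3.57 and 4.86, a log2 difference of 0.93 ± 0.22. On rescaled FPKM the BMSC-treated libraries were about as high as the COPD model ones in each gene, with BMSC-treated minus COPD log2 differences of -0.04 and -0.06. That scale multiplied BMSC-treated 1 by 3.37. On deposited FPKM smoke-exposed and control libraries overlapped in both genes, and the log2 differences from control were 1.47 for Bhlhe40 and 1.14 for Bhlhe41.

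Nr1d1 and Nr1d2 encode the REV-ERB repressors. Nr1d1 was at 1.88, 19.2 and 28.2 FPKM in controls, 40.6, 48.9 and 51.3 in the COPD model and 5.88, 32.7 and 41.5 after BMSCs, and only BMSC-treated 1 was within the control range. Nr1d2 was at 1.70, 5.42 and 16.8, then 23.5, 40.2 and 45.9, then 2.85, 18.2 and 28.3, with the same library within the control range. Nr1d1 had a log2 difference of 1.42 ± 0.69 and Nr1d2 of 1.68 ± 0.67 (SE; limma adjusted p = 0.989 for each). On the median-of-ratios scale Nr1d1 and Ciart did not overlap between groups. Rora, an activator that competes with REV-ERB, had a log2 difference of 0.53 and overlapped controls on deposited and rescaled FPKM.

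Of the activators, Clock was at 3.31, 3.16 and 3.52 rescaled FPKM in controls, 0.879 to 1.12 in the COPD model and 1.44, 2.60 and 0.838 after BMSCs. No smoke-exposed library reached the lowest control, and the log2 difference was -0.94 ± 0.22 (SE; limma adjusted p = 0.999), or -0.73 on deposited FPKM, where BMSC-treated 2 at 2.27 and COPD model 3 at 1.57 lay above control 1 at 1.39. Arntl, which encodes BMAL1, failed the filter because it passed 1 FPKM in 2 controls alone. Its deposited FPKM was 0.317, 2.05 and 1.67 in controls, 0.439, 0.176 and 0.261 in the COPD model and 0.182, 0.175 and 0.284 after BMSCs. Controls 2 and 3 were above every smoke-exposed library, and control 1 fell among them on deposited FPKM but not on rescaled FPKM, where the lowest control was 0.752 and the highest smoke-exposed library 0.612. Npas2 was at 0.249, 3.42 and 2.78 FPKM in controls and between 0.348 and 0.805 in the smoke-exposed libraries, again with control 1 low. In the fit with no filter, Arntl had a log2 difference of -0.82 ± 0.26 and Npas2 of -0.70 ± 0.35 (SE; limma adjusted p = 0.986 for each).

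**Figure D2:**
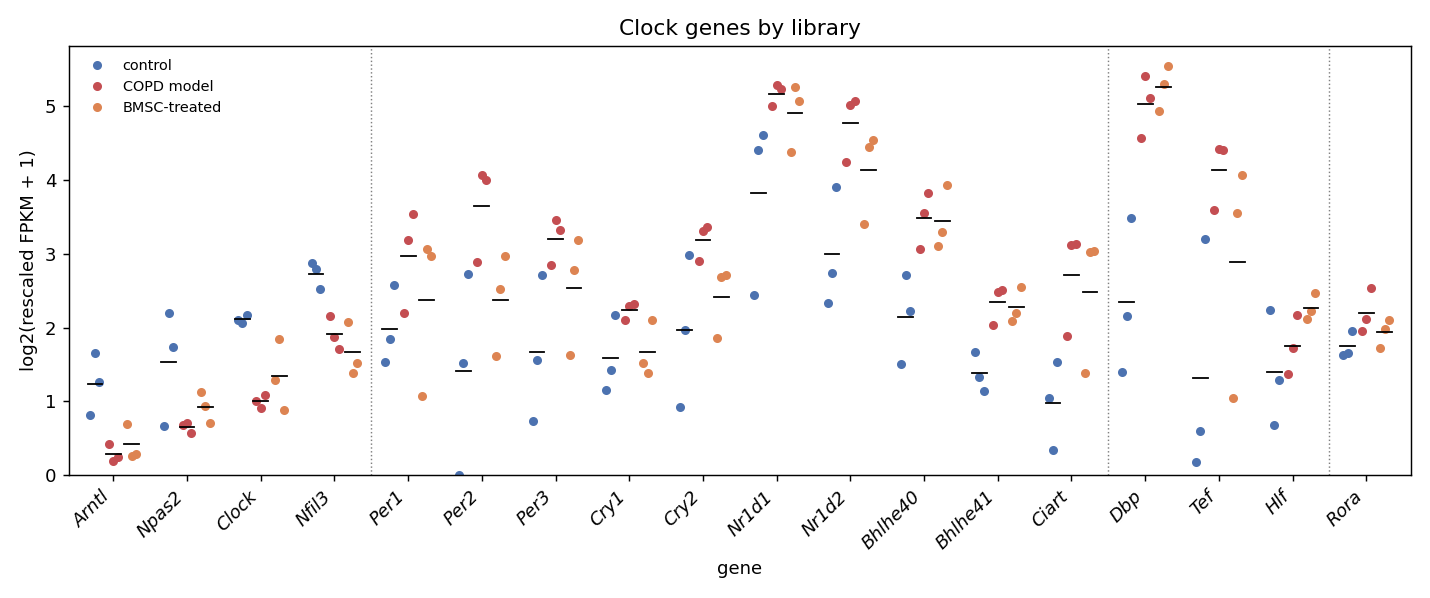
Level of clock genes in each library as log2(rescaled FPKM + 1), with 1 point per library and a line at each group mean (control, COPD model, BMSC-treated). Dotted lines part the activators with Nfil3, the repressors, the D-box factors and Rora. Dbp, Bhlhe40 and Bhlhe41 lie above all 3 controls in all 6 smoke-exposed libraries, and Clock, Nfil3 and Arntl lie below them.

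Among the cell type lists, smooth muscle, neutrophil and red cell genes had the medians farthest from that of all genes. All 11 smooth muscle and pericyte genes were above 0 on rescaled FPKM, with a median log2 difference of 0.71, and their summed level was 81.6 to 452 in controls, 319 to 856 in the COPD model and 160 to 501 after BMSCs. All 9 neutrophil genes tested, of 12, were below 0, with a median of -1.02 and a summed level of 128 to 2054, 102 to 212 and 229 to 612 in the same order. Summed clock genes were at 37.4 to 107 in controls, 134 to 216 in the COPD model and 96.3 to 186 after BMSCs, so the BMSC-treated range met the control range. The part of these cell groups in the clock values was not tested.

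Plagl1 encodes a zinc-finger factor and is an imprinted gene (ENSMUSG00000019817.18, chr10:13090832-13131694). Its deposited FPKM was 0.302, 0.527 and 0.327 in controls, 5.18, 8.95 and 6.84 in the COPD model and 0.617, 2.04 and 3.27 after BMSCs. Every smoke-exposed library was above every control on both scales, and on rescaled FPKM the controls were at 0.273 to 0.717, the COPD model at 3.95 to 6.96 and the BMSC-treated libraries at 2.08 to 2.59. The log2 difference was 1.75 ± 0.47 (SE; limma adjusted p = 0.729) on deposited and 1.59 ± 0.21 (adjusted p = 0.232) on rescaled FPKM. It was 2.03 in the COPD model and 1.15 after BMSCs on rescaled FPKM, and the BMSC-treated minus COPD difference of -0.88 was not called (limma adjusted p = 0.622). Without control 1 and BMSC-treated 1 the pooled difference was called on deposited FPKM (1.90, limma adjusted p = 0.0395). Of the 12 imprinted growth genes tested, 7 were above and 5 below 0 on rescaled FPKM, with a median of 0.09, near that of all genes.

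Tiam1, a guanine nucleotide exchange factor for the GTPase RAC1, was lower on both scales (ENSMUSG00000002489.15, chr16:89787111-90145600). It was at 1.06, 2.27 and 3.43 FPKM in controls, 0.469, 0.620 and 0.933 in the COPD model and 0.268, 0.487 and 0.796 after BMSCs, with no overlap. The log2 difference was -0.97 ± 0.34 (SE; limma adjusted p = 0.989), and -1.17 ± 0.16 (adjusted p = 0.232) on rescaled FPKM, where it was -1.26 in the COPD model and -1.08 after BMSCs. Kif26b, a kinesin-family protein of developing mesenchyme, was at 1.76, 1.76 and 2.21 FPKM in controls, 0.306, 0.807 and 1.32 in the COPD model and 0.355, 1.09 and 1.67 after BMSCs (chr1:178529125-178932857). Its groups lay close, with BMSC-treated 3 just under the 2 lower controls, and the log2 difference was -0.64 ± 0.37 (SE; limma adjusted p = 0.989).

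Gm20521, a predicted gene of which no function is stated here (ENSMUSG00000092232.1), was the gene that limma called, and it fell. Its deposited FPKM was 12.5, 15.7 and 11.4 in controls, 1.93, 0 and 1.01 in the COPD model and 0, 0 and 10.9 after BMSCs. BMSC-treated 3 lay just below the lowest control while 3 libraries were listed at 0, which in FPKM can be a failed estimate. The log2 difference was -2.80 ± 0.55 (SE; limma adjusted p = 0.0228), and on rescaled FPKM it was not called (log2 difference -3.26 ± 0.71, adjusted p = 0.999). The call was lost in 15 of 20 alternatives, among them those with the replicate block (limma adjusted p = 0.413) and without control 2, COPD model 2, BMSC-treated 1 or BMSC-treated 2 (limma adjusted p = 0.0715 to 0.636), and the direction held in all 20. Reads of predicted genes can be shared with a gene they overlap.

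**Figure D3:**
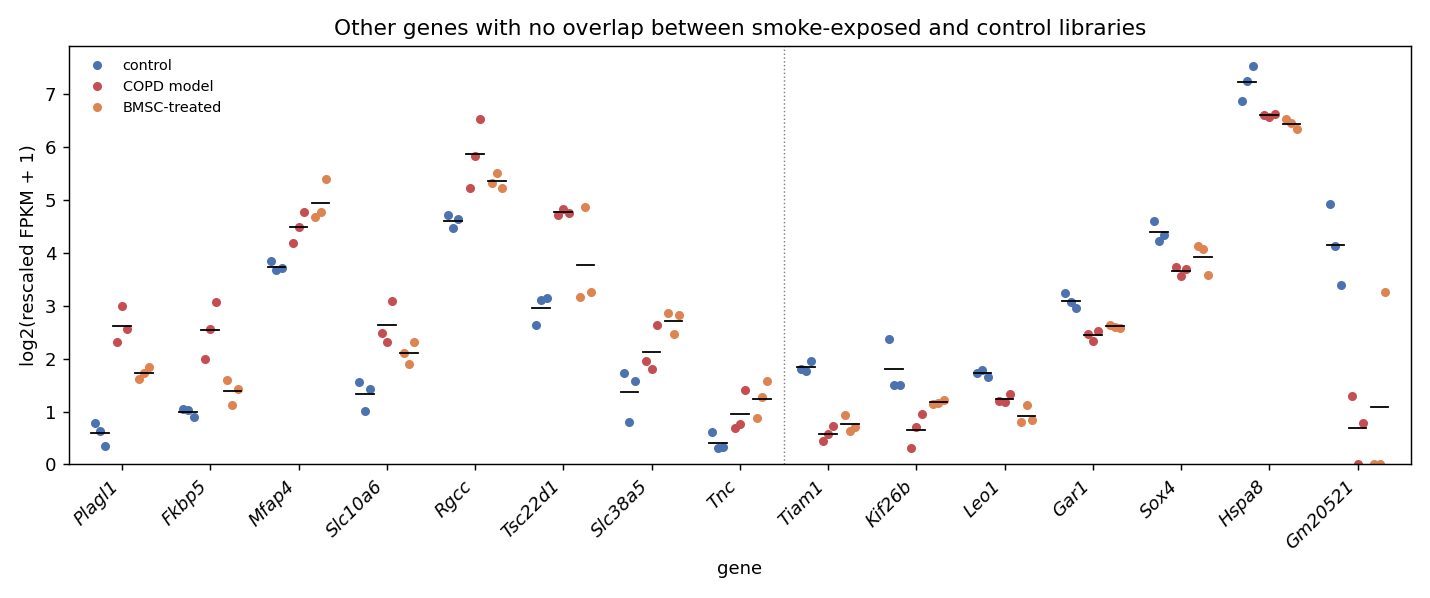
Level of 15 genes in each library as log2(rescaled FPKM + 1), with 1 point per library and a line at each group mean. The libraries of the smoke-exposed groups lie above all controls for the genes left of the dotted line (Plagl1 controls 0.273 to 0.717, smoke-exposed 2.08 to 6.96 rescaled FPKM) and below all controls for those right of it.

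Most genes without overlap on rescaled FPKM overlapped on deposited FPKM, and the matrix, transport, chaperone and nuclear genes named here were chosen after their values were seen. Higher genes of the extracellular matrix and mesenchyme included Mfap4, a microfibril-associated glycoprotein. It was at 13.3, 11.8 and 12.1 rescaled FPKM in controls, 17.3, 21.6 and 26.4 in the COPD model and 24.6, 26.5 and 41.2 after BMSCs, a log2 difference of 0.98 ± 0.22 (SE; limma adjusted p = 0.999). Tnc, the matrix protein tenascin C, was at 0.239 to 0.521 in controls and 0.611 to 1.98 in the smoke-exposed libraries. Tbx5, a factor of lung mesenchyme, was at 2.51 to 2.73 and 2.88 to 8.01, and Srpx2, a secreted sushi-repeat protein, at 0.315 to 0.485 and 0.732 to 1.63. Of the transporters, Slc10a6, which carries sulfated steroids, was at 1.02 to 1.94 and 2.75 to 7.50, and Slc38a5, which carries glutamine, at 0.740 to 2.31 and 2.47 to 6.30. Rgcc, a regulator of the cell cycle, stood at 21.2 to 25.4 in controls, 36.3, 56.2 and 91.9 in the COPD model and 38.8, 44.7 and 36.6 after BMSCs. Tsc22d1, a leucine-zipper protein, was at 25.4 to 27.3 in the COPD model, while after BMSCs it was at 7.97, 28.4 and 8.57 beside controls at 5.22 to 7.84, so 2 of its 3 BMSC-treated libraries barely cleared the controls. Class I MHC genes H2-D1 and H2-T23 had log2 differences of 0.48 and 0.54 on rescaled FPKM. On the median-of-ratios scale Slc38a5 and H2-D1 overlapped between groups, and the others named here did not.

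Lower genes without overlap on rescaled FPKM included Hspa8, the constitutive HSC70 chaperone. It was at 117, 152 and 185 rescaled FPKM in controls, 97.2, 93.9 and 98.4 in the COPD model and 91.2, 86.8 and 79.8 after BMSCs, a log2 difference of -0.70 ± 0.19 (SE; limma adjusted p = 0.999). On deposited FPKM its groups overlapped widely (27.1 to 138 against 49.3 to 222) and the log2 difference was -0.41. Sox4, a progenitor transcription factor, was at 17.7 to 23.4 rescaled FPKM in controls and 10.9 to 16.6 in the smoke-exposed libraries. Leo1, a subunit of the PAF1 elongation complex, was at 2.17 to 2.44 and 0.746 to 1.52. Gar1, a box H/ACA ribonucleoprotein, was at 6.80 to 8.41 and 4.07 to 5.25. Cd59b, an inhibitor of the complement attack complex, was at 2.17 to 2.21 and 0.982 to 1.65. Cd59b and Leo1 were at nearly the same level in the 3 controls on this scale, and on the median-of-ratios scale Sox4 overlapped between groups. Of the 13 heat shock chaperones tested, 10 were below 0 on rescaled FPKM, with a median of -0.31, while on deposited FPKM 6 were above 0. Of these chaperones 0 were called, beside 1 of all 11765 genes.

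Glucocorticoid-responsive genes were mostly above 0. Of 13 tested, 10 were above 0 on rescaled FPKM with a median log2 difference of 0.45, 4 were higher at unadjusted p under 0.05, and 0 were called, beside 1 of all 11765 genes. Of all genes, 59.2% were above 0 and 1.78% were higher at that p on this scale, and on deposited FPKM 2 of the 13 were. The median was 0.68 in the COPD model and 0.13 after BMSCs. Fkbp5, a chaperone of the glucocorticoid receptor that the hormone induces, was at 0.453, 0.990 and 1.04 FPKM in controls, 3.91, 6.32 and 10.4 in the COPD model and 0.602, 1.03 and 2.15 after BMSCs. The COPD model libraries stood clear of the controls and BMSC-treated 1 and 2 lay among them, although on rescaled FPKM, at 1.18 to 2.03 beside control values of 0.868 to 1.08, none of the 3 did. On the median-of-ratios scale the groups overlapped. The log2 difference was 1.15 ± 0.47 (SE; limma adjusted p = 0.989), made up of 2.04 in the COPD model and 0.27 after BMSCs. Mt1, a metallothionein, was at 37.3, 91.6 and 86.1 rescaled FPKM in controls, 117, 145 and 128 in the COPD model and 102, 115 and 99.9 after BMSCs, with no overlap. Zbtb16, another hormone-induced factor, was at 3.09 to 8.82 rescaled FPKM in the COPD model but at 1.09 to 2.55 after BMSCs, within the control range of 0.964 to 4.37. Angptl4, a lipase inhibitor, and Tsc22d3, the GILZ protein, had log2 differences of 0.88 and 0.58 on rescaled FPKM and overlapped controls.

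Lists of genes known for their response to smoke had pooled medians somewhat above that of all genes. None of the 8 genes tested of the AhR list was called, beside 1 of all 11765 genes. The list's median was 0.21 on rescaled FPKM, beside 0.06 for all genes. The list includes the receptor gene Ahr and its partner Arnt, which were the 2 members below 0 (-0.29 each), and the other 6 were above 0. Cyp1a1, the hydrocarbon-oxidising cytochrome P450, was at 0.903, 1.83 and 1.53 FPKM in controls, 1.14, 2.84 and 9.43 in the COPD model and 0.140, 5.93 and 1.72 after BMSCs. COPD model 3 and BMSC-treated 2 were highest, and COPD model 2 at 2.84 was also above every control. The remaining smoke-exposed libraries lay among or below the controls, and the log2 difference was 0.55 ± 0.49 (SE; limma adjusted p = 0.989). Cyp1b1 was at 0.252, 2.96 and 5.26 in controls and between 0.549 and 7.72 in smoke-exposed libraries, and its log2 difference of 0.27 turned to -0.40 without control 1. Tiparp, an AhR-induced ADP-ribosyltransferase, had a log2 difference of 0.59 with overlap. Of 21 NRF2 targets tested, 17 were above 0 on rescaled FPKM, beside 59.2% of all genes, with a median of 0.19, and 0 were called. Nqo1, a quinone reductase, was at 1.19, 4.14 and 6.42 FPKM in controls, 4.74, 12.3 and 14.8 in the COPD model and 2.19, 4.84 and 7.83 after BMSCs, a log2 difference of 0.81 ± 0.59. Srxn1, which restores peroxiredoxins, was the NRF2 target without overlap on rescaled FPKM, at 4.91 to 5.98 in controls and 6.17 to 9.31 in smoke-exposed libraries, and it overlapped on the median-of-ratios scale. Cbr3, a carbonyl reductase, and Txnrd1, thioredoxin reductase, had log2 differences of 0.70 and 0.52 on rescaled FPKM and overlapped controls on that scale. The median log2 difference of the AhR list was 0.54 in the COPD model and -0.04 after BMSCs on rescaled FPKM, and that of the NRF2 list 0.52 and -0.06. Those of all genes were 0.14 and -0.01. Without control 1 both list medians were below that of all genes. Under the 20 alternatives the AhR median was above that of all genes in 19 and the NRF2 median in 18.

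**Figure D4:**
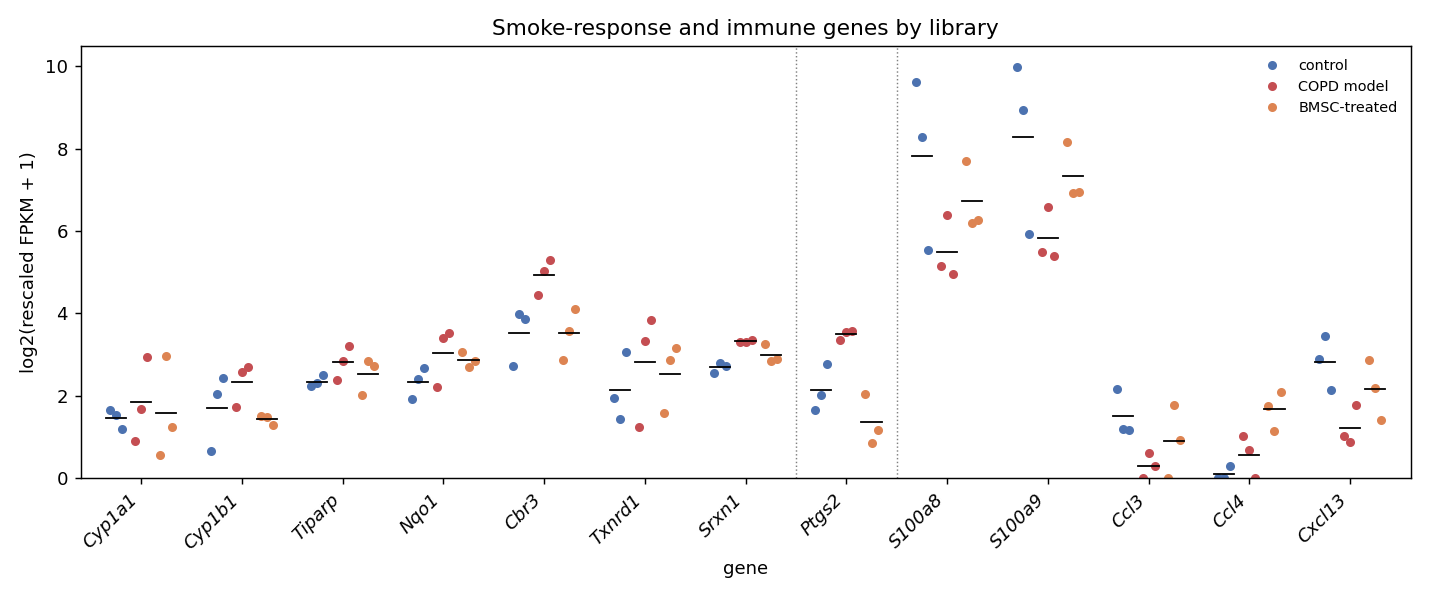
Level of smoke-response genes, Ptgs2 and immune genes in each library as log2(rescaled FPKM + 1), with 1 point per library and a line at each group mean. Cyp1a1 reaches below and above the controls in both smoke-exposed groups, Ptgs2 lies at 9.32 to 10.9 rescaled FPKM in the COPD model and 0.813 to 3.14 after BMSCs, and S100a8 is highest in control 1.

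For several genes the mean over all smoke-exposed libraries covered a difference between the 2 smoke-exposed groups. Of all genes, 15 were called between BMSC-treated and COPD model libraries by limma on deposited FPKM (0.127%) and 0 on rescaled FPKM (0.00%). Scgb1a1 was at 6546, 60700 and 99536 FPKM in controls, 248461, 230399 and 159371 in the COPD model and 9073, 34868 and 30968 after BMSCs. The COPD model libraries were above all controls and the BMSC-treated libraries were within the control range. The difference from control was 2.62 in the COPD model and -0.67 after BMSCs, so that the pooled value of 0.97 ± 0.32 (SE; limma adjusted p = 0.989) describes neither, and BMSC-treated minus COPD was -3.29 (limma adjusted p = 4.31e-10, or 0.622 on rescaled FPKM). That call was lost in 7 of 19 alternatives. On deposited FPKM these included no mean-variance trend (limma adjusted p = 0.375) and leaving out BMSC-treated 1 (limma adjusted p = 0.814). The pooled difference was called without control 2 (1.39, limma adjusted p = 0.0281) and without control 3 (1.75, adjusted p = 3.38e-07), and was -0.22 without control 1. Ptgs2, the inducible cyclooxygenase, was at 0.910, 2.88 and 6.95 FPKM in controls, 12.2, 13.8 and 15.2 in the COPD model and 0.931, 0.709 and 1.61 after BMSCs. Its BMSC-treated minus COPD log2 difference was -2.84 (limma adjusted p = 0.0244, or 0.520 on rescaled FPKM), and this call was lost in 13 of 19 alternatives. Of the mitochondrially encoded genes, mt-Nd5 of complex I was lower in the COPD model by a log2 difference of -1.78 and at 0.03 after BMSCs, and mt-Co1 of complex IV at -1.40 and 0.02. All 13 mitochondrial genes had a pooled difference below 0, with a median of -0.58, and none was called.

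In a few genes 1 library lay apart from its group. Sp1, a general GC-box transcription factor, was at 0.308, 0.192 and 0.309 FPKM in controls, 0.0588, 6.43 and 10.1 in the COPD model and 1.38, 6.36 and 6.48 after BMSCs (chr15:102406316-102436404). COPD model 1 was below every control and the other 5 smoke-exposed libraries were above them, with a log2 difference of 1.90 ± 0.50 (SE; limma adjusted p = 0.723). Raver1, an RNA-binding cofactor of splicing, is listed under 2 gene IDs, whose separate positions were not checked. The first (ENSMUSG00000010205.11) was at 0.377, 0 and 0 FPKM in controls, 0, 6.94 and 9.43 in the COPD model and 0, 0 and 7.51 after BMSCs. Like Sp1, this ID passed the filter on low values through smoke-exposed libraries alone. The second (ENSMUSG00000111497.1) was at 0.259, 0.982 and 1.55 FPKM in controls, 2.36, 0.143 and 0.204 in the COPD model and 0.292, 2.59 and 0.157 after BMSCs. It was lowest in the 3 libraries where the first was high, and was high in COPD model 1 and BMSC-treated 2 but not in BMSC-treated 1 where the first was at 0. Reads may be split between the IDs, so the gene is uncertain. Maml2, a coactivator of Notch, was at 1.65, 0.789 and 2.13 FPKM in controls, 9.73, 9.41 and 12.6 in the COPD model and 0.893, 4.16 and 8.06 after BMSCs, a log2 difference of 1.54 ± 0.56 (SE; limma adjusted p = 0.989) with overlap in BMSC-treated 1 alone. The 13 Notch pathway genes tested had 12 above 0 on rescaled FPKM and a median of 0.29.

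Arrb1, beta-arrestin 1, which ends signalling of G protein-coupled receptors, was at 4.96, 5.62 and 1.13 FPKM in controls, 0.187, 0.200 and 0.436 in the COPD model and 1.57, 0.514 and 0.319 after BMSCs. BMSC-treated 1 lay above control 3, and the other 5 smoke-exposed libraries lay below all controls. The log2 difference was -1.57 ± 0.37 (SE; limma adjusted p = 0.221), or -1.73 ± 0.63 (adjusted p = 0.999) on rescaled FPKM. Without control 3, the lowest control, it was called (log2 difference -2.09, limma adjusted p = 0.0031), and leaving that control out could only widen the difference. Asprv1, a skin-type aspartic protease also found in neutrophils, was at 2.34, 3.40 and 0.489 FPKM in controls and at 0 to 1.07 in smoke-exposed libraries, with controls 1 and 2 high and a log2 difference of -0.89 ± 0.33 (limma adjusted p = 0.989). Neutrophil genes were high in the same 2 controls. S100a8 and S100a9, the calprotectin subunits, were at 331, 297 and 54.1 and at 428, 467 and 71.7 FPKM in controls 1 to 3, and at 42.4 to 106 and 57.1 to 155 in the smoke-exposed libraries, so control 3 fell within the smoke-exposed range. The log2 differences were -1.41 and -1.42 (limma adjusted p = 0.989 for each). The part of neutrophil RNA in the Asprv1 values was not tested.

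Immune and structural gene groups gave no called gene, beside 1 of all 11765 genes (0.00850%), so the lack of calls does not set them apart. Of 8 class II MHC genes tested, all were above 0 on rescaled FPKM, with a median of 0.06 in the COPD model and 0.86 after BMSCs. H2-Ab1 was at 60.2, 60.1 and 111 rescaled FPKM in controls, 79.0, 78.8 and 114 in the COPD model and 110, 116 and 195 after BMSCs, and its groups overlapped through control 3. T and NK cell genes, 9 of 11 above 0, had medians of 0.03 and 0.88, and Cd8b1 was at 0, 0.325 and 5.93 in controls, 1.69 to 2.68 in the COPD model and 4.14 to 11.7 after BMSCs. Of the chemokines, Ccl4 was listed at 0, 0 and 0.239 rescaled FPKM in controls and up to 3.31 in smoke-exposed libraries, while Ccl3 was at 1.27 to 3.49 in controls and 0 to 2.46. Ccl3 and Ccl4 draw in monocytes and lymphocytes. Cxcl13, a B cell chemokine, was at 3.45 to 9.92 and 0.843 to 6.30. Red cell genes were below 0 in 7 of 7, with a median of -0.84, made up of -1.68 in the COPD model and -0.09 after BMSCs.

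Of the 20 collagen and elastic fibre genes tested, 16 were above 0 on rescaled FPKM with a median of 0.38, in the COPD model 0.48 and after BMSCs 0.33. Col6a3, a chain of the beaded filament collagen, was at 0.525 to 2.71 in controls and 0.773 to 4.84 in smoke-exposed libraries. Cnn1, calponin of smooth muscle, was at 13.2, 1.86 and 23.2 rescaled FPKM in controls and 6.78 to 72.9 in smoke-exposed libraries, and Acta2, smooth muscle actin, at 20.8 to 181 and 50.1 to 317, with overlap in each. All 13 ciliated cell genes tested were above 0 on rescaled FPKM with a median of 0.41, but without control 1 and BMSC-treated 1 the median was -0.14 on that scale. The 23 lung phase I and II enzymes tested had a median of 0.26 that turned to -0.10 without those libraries. The smooth muscle median was 1.07, the clock median 0.96 and the neutrophil median -0.70 without them.

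**Figure D5:**
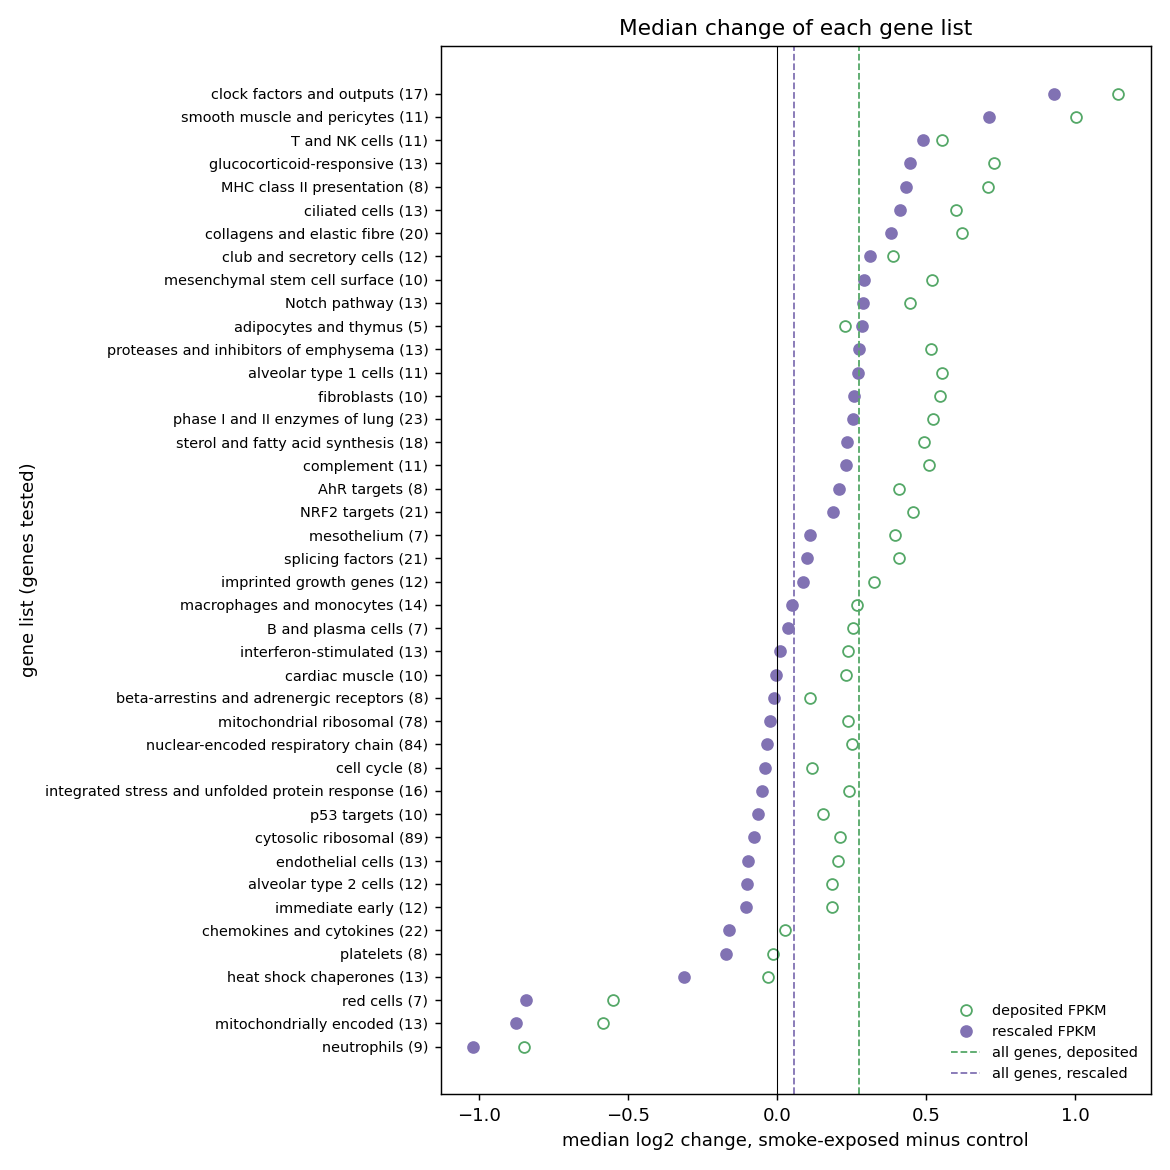
Median log2 difference, smoke-exposed minus control, of each gene list on deposited FPKM (open points) and rescaled FPKM (filled points), with the number of genes tested in brackets and dashed lines at the medians of all genes (0.27 and 0.06). Clock genes stand highest (1.14 and 0.93) and neutrophil genes lowest (-0.85 and -1.02).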

How the data were processed

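Total RNA of whole mouse lung was made into poly(A)-selected, stranded mRNA libraries (9 of the 18 libraries of the series), per the labels' protocols. FastQC, cutadapt, StringTie and Bowtie and the build mm10 are named in the submitters' processing notes. Versions, roles and the strand setting remain not given in the sources used here. Values of 13384 genes were deposited by the authors in FPKM, per the file headers. No gene had all its group means under 0.5003 FPKM, which shows a filter on low genes. The tsRNA tables of the series were not used here. No libraries held identical values.

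Genes with 1 FPKM or more in at least 3 of 9 libraries (11765) were tested on log2(FPKM + 1) with limma 3.58.1 (trended empirical Bayes, R 4.3.3), as the mean of COPD model and BMSC-treated minus control in a 3-group fit, with Benjamini-Hochberg adjustment over all genes and a threshold of 0.05. The filter removes genes that are high in controls alone where fewer than 3 libraries reach it, so Arntl and Npas2 are given from a fit with no filter. Rescaled FPKM has an equal sum outside Scgb1a1 and the mitochondrial genes, and a median-of-ratios scale was an alternative. Shares were tested by exact permutation over 84 splits. On simulated data of this design, with 11765 genes, 10 of 200 genes with a log2 difference of 2 were recovered and 199 had the right sign. Among the genes given no difference 1 false call was made. The 200 were drawn from genes of higher level. Genes are named if they were called, did not overlap between groups on both scales, belong to the gene lists or were already seen to differ; others were chosen after their values were seen and are marked so. The comparison and the lists were chosen with earlier results of these data known, so they are not independent support. Symbols came from the table (13362 IDs were in the name table, and 24 genes shared a symbol), and coordinates and promoters from RefSeq GRCm38.p6. Of the clock list, 1 gene is counted but its own values are not reported here.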

Additional observations from a re-analysis of the deposited data

Results flagged for a closer look

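The 2 smoke-exposed groups moved differently from control for 4 of the genes named, by the limma contrast of BMSC-treated against COPD model libraries on deposited FPKM. The log2 differences were -3.29 for Scgb1a1, -2.84 for Ptgs2, 1.81 for mt-Nd5 and 1.42 for mt-Co1, and none of these was called on rescaled FPKM. Of 19 alternative settings, the calls were lost in 7, 13, 11 and 12, in this order.

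In 8 of 81 genes examined, 1 of the 6 smoke-exposed libraries lay far from the others (on log2(rescaled FPKM + 1), its gap to the nearest, as a share of their range, was above Dixon's critical value), where chance flags about 1 in 20 groups. The library was BMSC-treated 1 in 5 of them. It was high for Arrb1, at 5.29 rescaled FPKM, and low for Tef at 1.06, Per3 at 2.10, Nr1d1 at 19.8 and Ppp1r37 at 0.640. COPD model 1 was low for Sp1 at 0.0449 and for Asprv1 at 0, and BMSC-treated 2 was high for H2-T23 at 25.7 rescaled FPKM.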

How the results depend on the processing

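No gene was called higher in limma, with 118 at unadjusted p under 0.05 and 210 on rescaled FPKM, and this count was 1 without control 2, 3 without control 3 (Scgb1a1, Tef and Dbp), and 2 (Dbp and Plagl1) without control 1 and BMSC-treated 1. The count called lower was 1 and became 0 on rescaled FPKM, on the median-of-ratios scale, with a pseudocount of 0.1, with no filter, with a filter at 5 FPKM, with the smoke-exposed libraries as a single group, with no mean-variance trend, with the replicate block (smallest adjusted p = 0.110), with the block on rescaled FPKM (0.211), and without control 1 and BMSC-treated 1 on either scale. Leaving out 1 library gave 0 to 3 called higher and 0 to 2 called lower (Gm20521, and Arrb1 without control 3). For Tef, Dbp and Arrb1, control 3 was the control closest to the smoke-exposed mean, so leaving it out widens the difference. Genes without overlap on both scales were 1 higher and 3 lower. These counts were 81 and 49 on rescaled FPKM alone, 108 and 60 on the median-of-ratios scale, and 1 to 135 and 3 to 26 with 1 library left out. Without BMSC-treated 1 there were 135 higher, without control 3 there were 42, and without control 1 there were 26 lower. Without control 1 and BMSC-treated 1 they were 228 and 43, 434 and 291 on rescaled FPKM, and 482 and 438 on the median-of-ratios scale, the last chosen after seeing the data. Fewer libraries need to be cleared in these subsets.

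Deviations of control and BMSC-treated libraries went together for numbers 1 and 3 (r = 0.63 and 0.50 across genes, deposited FPKM). For number 2, r was 0.19 between control and BMSC-treated and 0.18 between control and COPD model. The other pairs with the COPD model lay between -0.17 and 0.05. On rescaled FPKM, r between control and BMSC-treated was 0.54 and 0.50 for numbers 1 and 3. The planned fit had no block and was kept. Outside the block fits, the p-values for genes therefore do not take this shared deviation into account. Of 1645 gene values under alternatives, 1570 kept direction and call. Log2 differences turned sign for Scgb1a1 (-0.22 without control 1, -0.057 without control 1 and BMSC-treated 1 on rescaled FPKM), Cyp1b1 (-0.40 without control 1, and -0.27 and -0.38 without both libraries on deposited and rescaled FPKM), Ptgs2 (-0.018 and -0.13 under the same settings as Scgb1a1), the second Raver1 ID (0.018 without COPD model 2, 0.032 without BMSC-treated 3) and Hspa8 (0.046 without control 3). With 1 library left out these spanned -0.22 to 1.75, -0.40 to 0.76, -0.018 to 1.01, -0.40 to 0.032 and -1.03 to 0.046, in this order. The cause was not tested. Library weights did not converge, so the weighted fit was not run. Depth is unknown, so its limit cannot be given.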

Other observations

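Genes for making proteins and energy outside the mitochondrial genome had pooled medians near that of all genes. On rescaled FPKM the median log2 difference was -0.03 for 84 nuclear-encoded respiratory chain genes, -0.08 for 89 cytosolic ribosomal protein genes and -0.02 for 78 mitochondrial ribosomal protein genes, beside 0.06 for all genes and -0.87 for the 13 mitochondrially encoded genes. By group, the cytosolic ribosomal median was -0.33 in the COPD model and 0.18 after BMSCs, beside 0.14 and -0.01 for all genes. Those of the respiratory chain and mitochondrial ribosomal lists lay between -0.07 and 0.07 in both groups. The unfolded protein and integrated stress response list, with 7 of 16 above 0, had a median of -0.05, and the interferon-stimulated list, with 8 of 13 above 0, a median of 0.01. By group, the stress response median was 0.27 in the COPD model and -0.13 after BMSCs, and the interferon median -0.31 and 0.34. Sterol and fatty acid synthesis genes had 14 of 18 above 0 and a median of 0.24, of which 0.49 stood in the COPD model and -0.04 after BMSCs. No gene of these lists was called, beside 1 of all 11765 genes.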
